A study of Homo sapiens with 6 samples.

Results

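The 10 genes described here are read as marks of the epithelial-mesenchymal transition. They were measured in 6 RNA-seq libraries labelled 253J, which the study describes as a human bladder cancer cell line. They are the intermediate filament VIM, the matrix protein FN1, the cadherins CDH1 and CDH2, the epithelial adhesion molecule EPCAM, and the transcription factors SNAI1, SNAI2, ZEB1, ZEB2 and TWIST1. The members were chosen by name, and all 10 were found among the 60483 gene IDs of the count files. The study compared cells given control siRNA (control replicates 1, 2 and 3) with cells given siRNA against FTO, the m6A demethylase (siFTO replicates 4, 5 and 6); all were grown in RPMI-1640 medium with serum. The sample labels speak of siRNA, while the methods of the study describe hairpin RNAs, so the agent is named here as the labels give it. No source says that the replicates of a group were grown separately, and the p-values therefore speak of the spread among these 6 libraries alone, part or all of which can be technical. Total counts lay between 10991789 and 19891269 in the controls and between 13162731 and 15709975 in the siFTO libraries. FTO itself stood at 31.8, 21.4 and 31.2 CPM (the usual depth-scaled read count, here on TMM-scaled library sizes) in the controls and at 20.2, 20.7 and 15.7 CPM in siFTO replicates 4, 5 and 6. Every siFTO library lay below every control, as was so for 25.6% of all genes tested. The log2 fold change was -0.57 ± 0.16 (standard error, n = 3 per group) with an adjusted p of 0.0209 in the quasi-likelihood test of edgeR. This call was lost in edgeR when control replicate 1 (adjusted p = 0.107) or 3 (adjusted p = 0.113) was dropped or library totals were the scaling (adjusted p = 0.0576).

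The epithelial-mesenchymal transition is the change of sheet-forming cells, joined by E-cadherin and tight junctions, into motile cells that carry vimentin and deposit fibronectin. Transcription factors of the SNAI, ZEB and TWIST families drive it, in part by binding E-box sequences near the start of CDH1 and repressing that gene. In tumours of the bladder and elsewhere, loss of E-cadherin and gain of N-cadherin (CDH2) are the classical sign of the transition, and many cancers show mixed states. The question asked here was whether epithelial genes were lower in the libraries in which mesenchymal genes were higher.

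The siFTO libraries were not alike. Earlier results from these same counts had set replicates 4 and 5 apart from replicate 6, and the labels give no such division, so the values are set side by side for each library, and no mean or test of replicates 4 and 5 against the other 4 libraries is given. Fits without replicates 4 and 5, or without replicate 6, follow the same division and are given only to show how a call depends on those libraries. Without replicates 4 and 5 the siFTO arm is 1 library, which is assumed to vary as the controls do. In the comparison that the labels do give, 3 siFTO against 3 control libraries, 4 of the 10 members were called higher (VIM, FN1, SNAI1 and ZEB1) and none lower by edgeR at an adjusted p under 0.05, while of the 14965 genes tested 19.5% were called higher, 17.9% lower and 37.4% either way. At an unadjusted p under 0.05 there was 1 lower member, EPCAM. DESeq2, which took in all 10 members, called 5 higher and 1 lower, beside 2867 higher and 2308 lower of 30886 genes fitted. Of the 5 higher members, CDH2 and SNAI2 had reads almost only in replicates 4 and 5, so nothing is read from that count. The filter on low counts was passed by 6 members, and CDH2, SNAI2, ZEB2 and TWIST1 did not, because they had almost no reads outside replicates 4 and 5. They are given by their counts and CPM. With a filter of 10 counts in 2 or more libraries, 8 members were called higher, beside 19.0% of all genes tested. The 4 added by that filter pass it through replicates 4 and 5 alone, where they are high, so nothing is read from that count. They were not called without any 1 control, and ZEB2 and TWIST1 were not called in DESeq2.

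VIM, which forms the intermediate filaments of mesenchymal cells, stood at 1.02, 0.938 and 0.568 CPM in control replicates 1, 2 and 3, at 636 and 730.4 CPM in the siFTO libraries 4 and 5, and at 0.292 CPM in siFTO replicate 6. The groups overlapped, since replicate 6 lay below every control, while the lower of replicates 4 and 5 was 621-fold above the highest of the other 4 libraries. Over all 6 libraries the log2 fold change was 9.13 ± 1.80 (standard error, n = 3 per group, adjusted p = 0.00408 from edgeR). In edgeR the call was lost when control replicate 1, 2 or 3 was left out (adjusted p of 0.062, 0.0686 and 0.0637), and the log2 fold change was -1.45 (adjusted p = 0.235) when replicates 4 and 5 were left out. FN1, the fibronectin that cells lay down for integrins to grip, stood at 2.70, 1.34 and 2.22 CPM in the controls, at 148 and 184 CPM in replicates 4 and 5, with replicate 6 at 3.13 CPM. Here the groups did not overlap, as was so for 25.8% of all genes tested in the upward direction, but replicate 6 was close to the highest control. The log2 fold change of FN1 was 5.77 ± 1.12 (standard error, n = 3 per group, adjusted p = 0.00384 from edgeR) over all libraries and 0.61 (adjusted p = 0.314) without replicates 4 and 5. Without control replicate 1, 2 or 3 its adjusted p from edgeR was 0.0557, 0.0664 and 0.0573. CDH2, the N-cadherin of mesenchymal and neural cells, had 63 and 109 reads in replicates 4 and 5 (4.46 and 6.78 CPM), 1 read in control replicate 2 and 0 in the other 3 libraries. A count of 0 allows a level of up to 0.279, 0.155 and 0.219 CPM in control replicates 1 and 3 and siFTO replicate 6, counting error only.

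**Figure D1:**
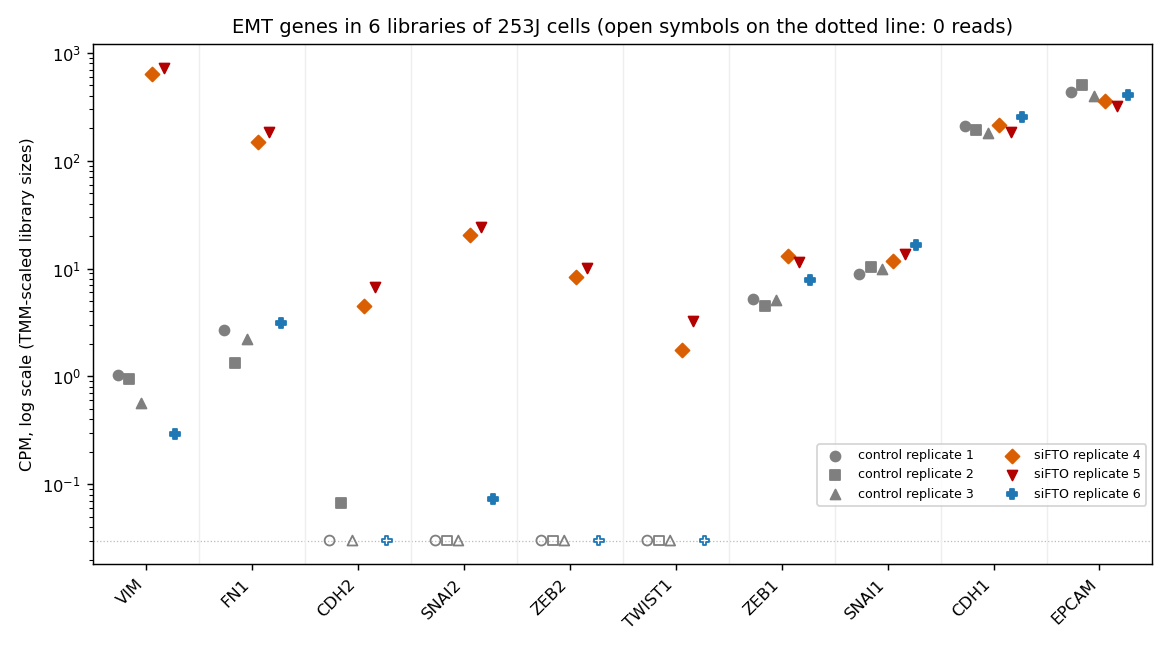
CPM on a log axis of the 10 members in each of the 6 libraries, 1 point per library, with libraries at 0 reads drawn as open symbols on the dotted line. VIM, FN1, CDH2, SNAI2, ZEB2 and TWIST1 are high in siFTO replicates 4 and 5 alone, ZEB1 and SNAI1 are raised in all 3 siFTO libraries, and CDH1 and EPCAM keep within 179 to 257 CPM and 320.1 to 504 CPM.

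VIM, FN1 and ZEB2 (a zinc finger repressor of E-cadherin) have a single start in the RefSeq promoter table (GRCh38.p14), and the 250 bases before it are printed because these genes were high in the same 2 libraries. Capitals mark GC boxes (GGGCGG on either strand, overlapping matches in FN1 run together), the sites that the general activator SP1 can bind. VIM lies on the plus strand (chr10:17227991-17228240), and FN1 (chr2:215436069-215436318) and ZEB2 (chr2:144520120-144520369) lie on the minus strand.
VIM: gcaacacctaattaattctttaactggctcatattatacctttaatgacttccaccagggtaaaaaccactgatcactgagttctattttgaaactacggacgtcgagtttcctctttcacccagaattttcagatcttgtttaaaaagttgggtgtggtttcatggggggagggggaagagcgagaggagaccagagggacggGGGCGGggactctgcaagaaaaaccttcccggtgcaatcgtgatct
FN1: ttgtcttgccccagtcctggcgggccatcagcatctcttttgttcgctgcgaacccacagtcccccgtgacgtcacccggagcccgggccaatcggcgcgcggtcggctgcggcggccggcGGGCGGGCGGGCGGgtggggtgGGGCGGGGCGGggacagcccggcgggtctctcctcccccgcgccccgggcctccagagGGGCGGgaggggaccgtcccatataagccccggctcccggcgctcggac
ZEB2: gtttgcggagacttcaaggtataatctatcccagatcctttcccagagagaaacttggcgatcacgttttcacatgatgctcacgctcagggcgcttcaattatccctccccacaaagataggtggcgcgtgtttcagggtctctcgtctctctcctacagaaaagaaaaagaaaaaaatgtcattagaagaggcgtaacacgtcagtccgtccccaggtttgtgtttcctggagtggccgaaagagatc
The FN1 window holds 6 GC boxes, the VIM window 1, and the ZEB2 window none, against 42.6% of the 35116 windows in the table that hold at least 1. None of the 3 windows holds the E-box CAGGTG (found in 17.5% of all windows), the AP-1 site TGANTCA (6.57%) or the TATA box TATAAA (10.7%), each searched on both strands. No motif searched was thus present in all 3 windows. CDH2 has 2 starts, and the window of one holds a GC box 177 bases before the start, the other an AP-1 site at 102 and a TATA box at 32 bases. ZEB1 has 7 starts in the table, and 2 of their windows hold the E-box, at 57 bases before the start in one and at 242 and 85 bases in the other. Entries were matched for 5 of the 10 members, and those not matched are SNAI1, SNAI2, TWIST1, CDH1 and EPCAM.

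Of the 5 transcription factors, 3 had no reads in any control. SNAI2 (Slug), a repressor that neural crest and basal epithelial cells use, had 289, 387 and 1 reads in replicates 4, 5 and 6, that is 20.4, 24.1 and 0.0729 CPM. Against the limit that 0 reads allow in the shallowest control, replicate 4 was at least 73.3-fold higher and replicate 5 at least 86.2-fold higher. ZEB2 had 118 and 164 reads in replicates 4 and 5 (8.35 and 10.2 CPM) and 0 in replicate 6, which put replicates 4 and 5 at least 29.9-fold and 36.5-fold above the controls. TWIST1, a basic helix-loop-helix factor of mesoderm, had 25 and 52 reads (1.77 and 3.23 CPM) and 0 in replicate 6, with bounds of at least 6.34-fold and 11.6-fold. These 3 genes thus had reads where VIM was abundant and next to none where it was scarce.

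SNAI1 and ZEB1 went another way, because the controls and replicate 6 had them too. SNAI1 (Snail), a repressor of CDH1, stood at 8.93, 10.4 and 10.0 CPM in the controls and at 11.7, 13.6 and 16.5 CPM in siFTO replicates 4, 5 and 6. The groups did not overlap, as was so for 25.8% of all genes tested in the upward direction. Replicate 6, poorest in VIM, was the highest of all for SNAI1. Its log2 fold change of 0.50 ± 0.16 (standard error, n = 3 per group, adjusted p = 0.029 from edgeR) became 0.75 (adjusted p = 0.0237) without replicates 4 and 5. In edgeR it lost its call when control replicate 1, 2 or 3 (adjusted p of 0.128, 0.0768 and 0.0921) or siFTO replicate 5 or 6 (adjusted p of 0.0549 and 0.0793) was dropped, and it was not called in DESeq2 (adjusted p = 0.0601). ZEB1, the partner repressor of ZEB2, stood at 5.21, 4.49 and 5.12 CPM in the controls and at 13.2, 11.6 and 7.87 CPM in the siFTO libraries. Its groups did not overlap either. Its log2 fold change was 1.15 ± 0.20 (standard error, n = 3 per group, adjusted p = 0.00267 from edgeR), it passed in each fit that left out 1 library (adjusted p from 1.06e-05 to 0.0337), and without replicates 4 and 5 it was 0.68 (adjusted p = 0.0778). The antisense gene ZEB1-AS1 stood at 7.10 to 8.22 CPM in the controls and at 7.90 to 8.53 CPM in the siFTO libraries. The strand setting of the counting is not given, so reads of ZEB1 and ZEB1-AS1, or of VIM and VIM-AS1 (at most 32 reads in a library), cannot be told apart where they overlap.

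CDH1, the E-cadherin that zips epithelial cells together, was not called in either direction. It stood at 208, 191 and 179 CPM in the controls, at 213 and 186 CPM in replicates 4 and 5, with replicate 6 at 257 CPM. The groups overlapped, and the 2 libraries rich in VIM, SNAI2 and ZEB2 lay within or just above the control range, with replicate 6 above it. The log2 fold change of CDH1 was 0.18 ± 0.12 (standard error, n = 3 per group, adjusted p = 0.246 from edgeR). EPCAM, a surface adhesion protein of epithelia, stood at 436, 504 and 398 CPM in the controls and at 359, 320.1 and 409 CPM in replicates 4, 5 and 6. Replicates 4 and 5 were the lowest of the 6 libraries, and replicate 6 lay between the controls. The log2 fold change of EPCAM was -0.30 ± 0.12 (standard error, n = 3 per group, adjusted p = 0.0649 from edgeR). It passed without replicate 6 (-0.41, adjusted p = 0.00979 from edgeR) and in DESeq2 (adjusted p = 0.0397). Relative to replicate 6, both genes were lower in replicates 4 and 5.

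Positions of the members were taken from GENCODE 29 (GRCh38), with version numbers of the IDs ignored in the match. The submitters' notes list hg19 and GRCh37 with no role, and no annotation release is given, so reads may have been counted on other coordinates. VIM (ENSG00000026025.12) lies on chromosome 10 from 17228259 to 17237593, and ZEB1 (ENSG00000148516.20) on the same chromosome from 31318495 to 31529814. On chromosome 2 lie FN1 (ENSG00000115414.17, 215360440 to 215436172), ZEB2 (ENSG00000169554.15, 144364364 to 144524583) and EPCAM (ENSG00000119888.9, 47345158 to 47387601). CDH1 (ENSG00000039068.17) lies on chromosome 16 from 68737225 to 68835548, CDH2 (ENSG00000170558.7) on chromosome 18 from 27950966 to 28177446, and SNAI1 (ENSG00000124216.3) on chromosome 20 from 49982999 to 49988886. TWIST1 (ENSG00000122691.11) lies on chromosome 7 from 19020991 to 19117672 and SNAI2 (ENSG00000019549.7) on chromosome 8 from 48917604 to 48921740.

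Whether epithelial genes beyond CDH1 and EPCAM were lower was asked of 32 genes of junctions and epithelial surfaces, a list that includes both. Of 30 tested, 12 fell, 6 rose and 12 were not called, which is 40% lower against 17.9% of all genes and 20% higher against 19.5%. The median log2 fold change was -0.16, beside 0.006 over all genes. The largest fall was that of CLDN7, a tight junction claudin, which stood at 108 to 157 CPM in the controls and at 64.3, 72.2 and 73.1 CPM in replicates 4, 5 and 6 (log2 fold change -0.93, adjusted p = 0.000986 from edgeR). CLDN3, another claudin, stood at 19.2 to 25.9 CPM in the controls and at 9.48, 13.3 and 14.1 CPM (-0.84, adjusted p = 0.00438 from edgeR). LSR, which builds tricellular junctions, fell by 0.51 and the vesicle GTPase RAB25 by 0.86 on the log2 scale, and RAB25 was not called in edgeR without control replicate 1, 2 or 3 or siFTO replicate 4 or 5. Desmosome genes of the list went both ways, with DSC2, DSG2 and PKP2 higher, JUP (-0.32) and PKP3 (-0.43) lower and DSP (0.18) not called, JUP, PKP3 and DSP being named after their values were seen. JUP was not called without any 1 control or without siFTO replicate 4 or 5, and PKP3 not without control replicate 2 or 3 or siFTO replicate 4. The desmosomal cadherin DSC2 stood at 13.7 to 14.8 CPM in the controls and at 19.7, 19.5 and 23.1 CPM in replicates 4, 5 and 6 (0.56, adjusted p = 0.00522 from edgeR). The desmoglein DSG2 (0.54), the plakophilin PKP2 (0.44) and the tight junction scaffold TJP1 (0.46) also rose, DSG2 and TJP1 not without control replicate 1 and PKP2 not without control replicate 2. ST14, a membrane protease, stood at 344 to 378 CPM in the controls and at 293 to 357 CPM in the siFTO libraries and was not called.

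In the fit without replicates 4 and 5, only the controls supply the spread. All 6 higher genes were called higher in replicate 6 against the controls, while of the 12 lower genes only CLDN7 was called lower, against 6.17% and 5.89% of all genes called higher and lower in that fit. Without replicate 6 there were 5 higher and 15 lower genes, against 23.6% and 18.0% of all genes. Set beside replicate 6 as a description, with no test, replicates 4 and 5 were both lower for 29 of 30 tested junction genes. This was so for 38.6% of all genes tested. Both were also lower for 11 of 12 tested intestinal markers, a list read further on, so it was not particular to junction genes. They were both higher for 35.6% of all genes tested and for 18 of 21 of the mesenchymal effectors described further on. The difference for junction genes was small, with a median of -0.25 for replicate 4 and -0.22 for replicate 5 on the log2(CPM + 0.5) scale. Over all genes the medians were -0.02 and 0.00, and over the intestinal markers -0.29 and -0.29. In bulk RNA, fewer cells of a type and less RNA per cell cannot be told apart. For the higher mesenchymal genes, more cells of a type and more RNA per cell cannot be told apart either. Whether replicates 4 and 5 held RNA of other cells was not tested. With library totals as the scaling, which moved the median of all genes to 0.126, the junction list had a median of -0.04 with 6 higher and 7 lower. Of all 14965 genes tested, 4088 were higher and 1787 lower under that scaling. Lower genes of the list numbered 4, 4 and 6 when control replicate 1, 2 or 3 was dropped and 3 and 5 when siFTO replicate 4 or 5 was. Higher genes numbered 2 without control replicate 1. Over all genes 1612, 1597 and 1759 were lower without control replicate 1, 2 or 3, and 1589 and 2035 without siFTO replicate 4 or 5. Higher over all genes were 1383 without control replicate 1. All 6 libraries gave 2684 lower and 2913 higher.

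Regulators of the epithelial state were called in both directions at shares near those over all genes, so nothing is read from the counts. Of 16 tested, 4 were lower, 3 higher and 9 did not pass (25% and 18.8%, against 17.9% and 19.5% of all genes). ESRP1, a splicing factor that keeps epithelial exons in use, stood at 10.7 to 12.4 CPM in the controls and at 6.23, 5.53 and 7.58 CPM in replicates 4, 5 and 6 (log2 fold change -0.85, adjusted p = 0.0034 from edgeR). The pioneer factor FOXA2 (-0.84) and the intestinal homeobox factor CDX2 (-0.78) fell too, as did FOXA1 (-0.31), which was not called without control replicate 1 or 3 or siFTO replicate 4 or 5. The ETS factor EHF stood at 4.35 to 4.91 CPM in the controls and at 11, 8.83 and 15.8 CPM in the siFTO libraries (1.33, adjusted p = 0.00185 from edgeR). ELF3, also an ETS factor of epithelia, rose by 0.63 and the grainyhead factor GRHL3 by 1.1 on the log2 scale, GRHL3 not without control replicate 3. All 3 were highest in replicate 6. KLF5 stood at 268 to 319 CPM in the controls and at 311 to 375 CPM in the siFTO libraries, and HNF4A at 71.7 to 84.2 CPM and 65.7 to 80.5 CPM, and neither was called. Replicates 4 and 5 were both below replicate 6 for 14 of these 16 genes. That held for 38.6% of all genes tested and for 11 of 12 tested intestinal markers, a list that also holds CDX2 and HNF4A.

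**Figure D2:**
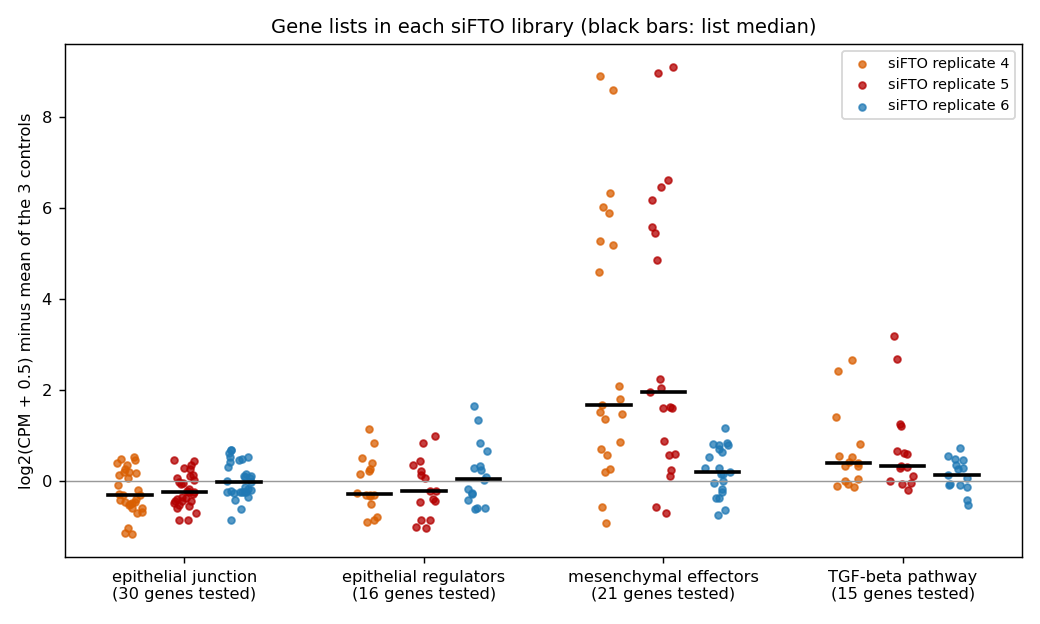
Difference in log2(CPM + 0.5) from the mean of the 3 controls for every tested gene of 4 lists, 1 point per gene, in siFTO replicates 4, 5 and 6, with list medians as black bars. The junction list has medians of -0.31, -0.24 and -0.01, and the list of mesenchymal effectors has medians of 1.67, 1.97 and 0.20.

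The list of 26 mesenchymal effectors, in which VIM, FN1 and CDH2 are included, had a larger share of called genes. Of 21 tested, 17 were higher (81.0%, against 19.5% of all genes) and none lower in edgeR, with 2 lower at an unadjusted p under 0.05 (CDH11 and S100A4) and none lower in DESeq2. The median log2 fold change was 1.43. TGFBI, a matrix protein that TGF-beta induces, stood at 0.744 to 1.54 CPM in the controls and at 611, 796 and 1.97 CPM in replicates 4, 5 and 6. LOXL2, which crosslinks collagen, stood at 0.723 to 1.14 CPM and at 92.7, 125 and 1.09 CPM. CD44, which binds hyaluronan, stood at 1.76 to 2.41 CPM and at 212, 259 and 4.08 CPM. These genes were high where VIM was high, and were called over all 6 libraries but not when control replicate 1, 2 or 3 was left out. The gelatinase MMP2 was not tested, and stood at 0.201 to 0.310 CPM in the controls and at 300, 380.2 and 0.510 CPM in the siFTO libraries. S100A4, a calcium-binding protein that is often read as mesenchymal, stood at 587 to 984 CPM in the controls and at 486, 489 and 641 CPM, and was not called.

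Counts for this list depended on the libraries, and so did those over all genes. When control replicate 1, 2 or 3 was dropped, 1383 of 16181, 1540 of 15790 and 1794 of 15822 of all genes tested were higher. Without control replicate 1, 2 or 3, 4, 4 and 3 of 24 tested genes were higher, and without replicates 4 and 5 it was 5 of 21, with a median of 0.25. Among them were CALD1, SPARC, TNC and THBS1, named after their values were seen, and CALD1, an actin-binding protein, passed in each fit that left out 1 library. THBS1 (thrombospondin) stood at 34.4 to 54.8 CPM in the controls and at 68.0, 67.9 and 79.5 CPM in replicates 4, 5 and 6, and was not called without control replicate 3. For THBS1 replicate 6 was thus the highest library. Among the 26 listed genes, 11 were at least 10-fold higher in both replicates 4 and 5 than in each of the other 4 libraries (with a floor of 3 counts), and among the 10 members 5 were (VIM, FN1, CDH2, SNAI2 and ZEB2). The same held for 2.19% of the 15318 genes with at least 10 counts in both. The rule uses the values that set replicates 4 and 5 apart, and the listed genes were not filtered on counts, so these shares are descriptions and nothing is read from their difference. None of the junction list or the epithelial regulators met it.

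Among 21 further transcription factors of the transition, 14 were tested, 6 were higher and 2 lower (42.9% and 14.3%, against 19.5% and 17.9% of all genes), so that the share of lower genes was below that over all genes. Higher genes of this list numbered 3, 1 and 1 when control replicate 1, 2 or 3 was dropped, and 3 without siFTO replicate 4. Over all genes 1383, 1540 and 1794 were higher without control replicate 1, 2 or 3 and 1702 without siFTO replicate 4. All 6 libraries gave 2913. ETS1, a factor of mesenchymal and lymphoid cells, stood at 0.837 to 1.03 CPM in the controls and at 10.8, 10.1 and 2.77 CPM in replicates 4, 5 and 6 (log2 fold change 3.05, adjusted p = 0.00156 from edgeR), and passed in each fit that left out 1 library. FOSL1, a subunit of AP-1, stood at 43.5 to 59.5 CPM and at 171, 204 and 60.0 CPM (1.51, adjusted p = 0.00749 from edgeR, not called without control replicate 1, 2 or 3). The chromatin protein HMGA2 rose by 1.04 and TCF12 by 0.50 on the log2 scale, HMGA2 not without control replicate 2 or 3 and TCF12 not without control replicate 2 or 3 or siFTO replicate 4. PRRX1, a homeobox factor of mesenchyme named after its values were seen, had 181 and 242 reads in replicates 4 and 5, 1 read in control replicate 3 and 0 elsewhere. The dominant-negative helix-loop-helix proteins ID1 and ID3, which hold back TWIST-type factors, fell by 0.56 and 0.52 on the log2 scale, ID1 not without control replicate 2. ID1 stood at 249 to 336 CPM in the controls and at 184, 221 and 169 CPM in the siFTO libraries, so that replicate 6 fell with the others. TCF3 stood at 211 to 229 CPM in the controls and at 196 to 233 CPM in the siFTO libraries, and ID2 at 179 to 202 CPM and 173 to 191 CPM, and neither was called.

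TGF-beta is the best-known inducer of the transition, and 9 of 15 tested genes of its ligands, receptors and mediators were higher (60.0%, against 19.5% of all genes) and none lower in edgeR, where 17.9% of all genes were, with none lower at an unadjusted p under 0.05 or in DESeq2. The ligand TGFB1 was not among them, at 167 to 182 CPM in the controls and 169, 189 and 184 CPM in replicates 4, 5 and 6. TGFB3 stood at 1.54 to 2.33 CPM in the controls and at 5.73, 5.10 and 1.75 CPM (log2 fold change 1.20, adjusted p = 0.035 from edgeR). The co-receptor ENG stood at 1.03 to 1.95 CPM and at 11.5, 16.8 and 0.802 CPM (2.83, adjusted p = 0.0165 from edgeR). The latency protein LTBP2 rose by 2.26 and the SMAD antagonist SKIL by 0.94 on the log2 scale. TGFB3 and ENG were not called without any 1 control or without siFTO replicate 4 or 5, and LTBP2 and SKIL not without any 1 control. SMAD4, the shared mediator, stood at 52.6 to 58.2 CPM in the controls and at 48.1 to 52.4 CPM in the siFTO libraries, and was not called. Without replicates 4 and 5, 2 of 15 genes of this list were called higher, SKI and TGFBR3, against 6.17% of all genes. Without control replicate 1, 2 or 3, 1, 1 and 3 of 16 were called higher. Over all genes it was 1383 of 16181, 1540 of 15790 and 1794 of 15822.

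A switch from E-cadherin to N-cadherin is the textbook cadherin pattern, so the whole family was read. Of 23 classical and related cadherins 18 had a read in some library, 9 were tested, and none was called in either direction by edgeR. Over all genes tested 19.5% were called higher and 17.9% lower. At an unadjusted p under 0.05 there was 1 higher (CDH17) and 1 lower (CDH11). DESeq2 called 3 higher (CDH2, CDH13 and CDH18) and none lower. The filter on low counts kept these 3 out of the edgeR test, and they had reads almost only in replicates 4 and 5. Per kilobase of exon, CDH17, the intestinal cadherin, had the highest level of the family in every library, at 38.3 to 46.3 CPM per kilobase in the controls and 44.3 to 55.9 in the siFTO libraries. CDH1 followed at 29.1 to 33.7 and 30.2 to 41.6 CPM per kilobase. CDH2 reached 0.900 and 1.37 CPM per kilobase in replicates 4 and 5, so that CDH1 remained far above CDH2 in every library. CDH13, a cadherin anchored by a lipid and named after its values were seen, had 461 and 556 reads in replicates 4 and 5 and 0 in the other 4, which put it at least 117-fold and 124-fold above the controls. CDH11, usually a cadherin of mesenchyme, was not raised there, with 3.26, 1.67 and 2.22 CPM in the controls and 0.990, 1.24 and 1.68 CPM in replicates 4, 5 and 6.

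Catenins tie cadherins to actin, and 1 of 6 junction linkers tested was higher (16.7%, against 19.5% of all genes) and none lower in edgeR, with none lower at an unadjusted p under 0.05 or in DESeq2. CTNNA1 (alpha-catenin), without which E-cadherin cannot hold actin, stood at 26.8, 22.6 and 24.6 CPM in the controls, at 76.5 and 88.0 CPM in replicates 4 and 5, with replicate 6 at 23.4 CPM. The groups overlapped, because replicate 6 lay among the controls. Its log2 fold change was 1.35 ± 0.36 (standard error, n = 3 per group, adjusted p = 0.0162 from edgeR), and it was -0.07 (adjusted p = 0.808) without replicates 4 and 5. It was also not called without any 1 control or without siFTO replicate 4 or 5. With library totals as the scaling 3 of the 6 linkers were higher, and so were 4088 of all 14965 genes tested. Beta-catenin (CTNNB1) stood at 259.7 to 289.6 CPM in the controls and at 287 to 318 CPM in the siFTO libraries, and p120-catenin (CTNND1) at 182 to 231 CPM and 206 to 247 CPM, and neither was called. Per kilobase, CTNNA1 was at 2.56 to 3.03 CPM in the controls, where CTNNB1 was at 21.8 to 24.3 CPM.

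**Figure D3:**
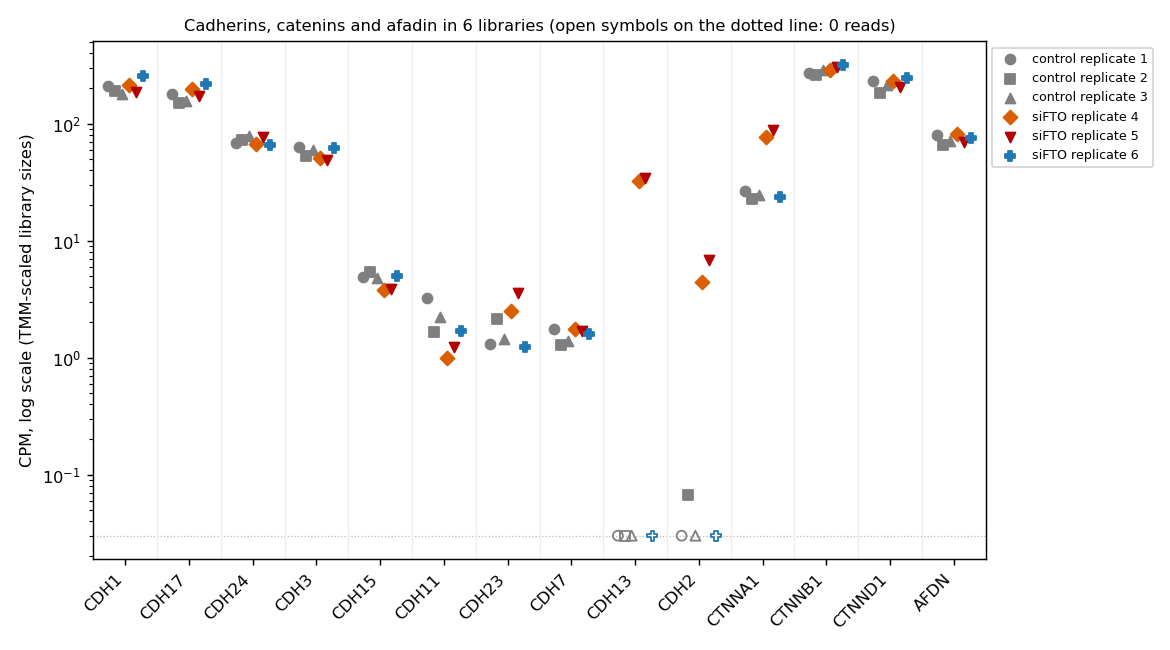
CPM on a log axis of 10 cadherins, 3 catenins and afadin (AFDN) in each library, 1 point per library, with 0 reads drawn as open symbols on the dotted line. CDH13 and CDH2 are high in siFTO replicates 4 and 5 alone, CTNNA1 stands at 76.5 and 88.0 CPM there against 22.6 to 26.8 CPM in the other 4 libraries, and CDH1 and CDH17 are high in all 6.

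Replicates 4 and 5 could also be set against each other. The CPM ratio of replicate 5 to replicate 4 was 1.15 for VIM (95% exact interval 1.12 to 1.18, counting error only), 1.24 for FN1 (1.17 to 1.31), 1.18 for SNAI2 (1.01 to 1.38) and 1.22 for ZEB2 (0.958 to 1.56). It was higher but imprecise for CDH2 (1.52, 1.1 to 2.11) and TWIST1 (1.83, 1.11 to 3.07). It was below 1 for CDH1 (0.876, 0.832 to 0.922) and EPCAM (0.893, 0.859 to 0.928). ZEB1 stood with CDH1 and EPCAM at 0.879 (0.714 to 1.08) and SNAI1 at 1.16 (0.944 to 1.43). The median ratio over all genes tested was 1.0 (quartiles 0.921 and 1.12), over the tested mesenchymal effectors 1.18 and over the tested junction genes 0.983. Replicate 5 was richer in VIM and FN1 and poorer in CDH1 and EPCAM, while the median junction gene differed by little. The ratios of VIM, CDH1 and EPCAM lay only just outside the quartiles of all genes, so no link between these genes is read from them. The 2 libraries are a single pair, and the difference between them has no replicate check.

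**Figure D4:**
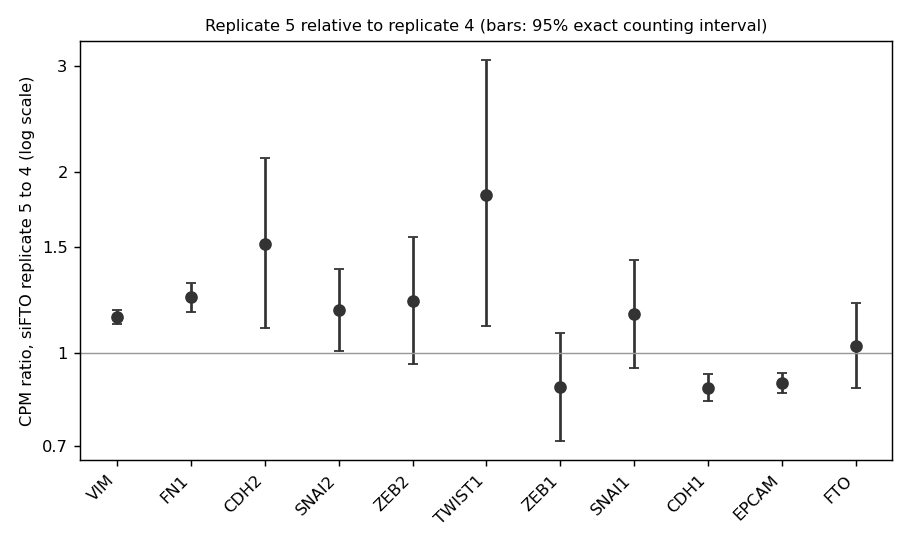
Ratio of CPM in siFTO replicate 5 to that in siFTO replicate 4 for the 10 members and FTO, on a log axis, with 95% exact intervals that cover counting error only. VIM and FN1 lie above 1 at 1.15 and 1.24, and CDH1 and EPCAM lie below 1 at 0.876 and 0.893.

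Among 9871 genes with a symbol and a mean of at least 10 CPM, those most like VIM over the 6 libraries were AKR1B1 (aldose reductase), MAP1B (a microtubule-associated protein) and MSN (moesin, which links membrane to actin), with Pearson's r of 0.999, 0.9987 and 0.9987 of log2(CPM + 0.5). MSN stood at 0.103 to 0.465 CPM in the controls and at 103, 125 and 0.219 CPM in replicates 4, 5 and 6. Those most like CDH1 were PLCB4 (a phospholipase C), ZNF431 (a zinc finger protein) and SLC16A1 (a lactate carrier), with r of 0.9917, 0.9751 and 0.9742. SLC16A1 stood at 493 to 533 CPM in the controls and at 545, 522 and 636 CPM. These are descriptions over 6 libraries, and the likeness to VIM rests on the 2 libraries in which it was high.

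Markers of other cell types were read in the same libraries. Of 11 fibroblast markers, 3 reached 1 CPM in each control and in replicate 6 and 7 did in replicates 4 and 5, and their summed level was 22.0 to 24.0 CPM in the controls and 524, 666 and 34.8 CPM in replicates 4, 5 and 6. COL6A3, COL1A1 and COL1A2 led, at 179, 151 and 121 CPM in replicate 4, while PDGFRB stood at 4.76 to 7.63 CPM in the controls and 6.93, 6.78 and 3.50 CPM in the siFTO libraries, and COL3A1, THY1 and PDGFRA had at most 2 reads in any library. Of these markers 6 (COL3A1, DCN, LUM, PDGFRA, THY1 and FAP) were at 0 in all controls. Of 12 leukocyte markers, 1 reached 1 CPM in each control and in replicate 6 and 3 did in replicates 4 and 5, with a summed level of 4.29 to 5.58 CPM in the controls and 74.2, 88.5 and 6.93 CPM in the siFTO libraries, in replicates 4 and 5 most of it CD74, while PTPRC, CD3E and MS4A1 had at most 1 read. Endothelial markers summed to 0.651 to 1.21 CPM in the controls and 3.04, 2.86 and 0.948 CPM in the siFTO libraries with EMCN at 0 in all 6, and smooth muscle markers to 113 to 139 CPM and 124, 157 and 107 CPM. Of 12 urothelial markers, UPK1B was at 0 in every library, TP63 had at most 1 read and KRT5 at most 7, and the list summed to 76.6 to 97.1 CPM in the controls, most of it PPARG, and 94.7, 90.0 and 111 CPM in the siFTO libraries. Of 12 intestinal markers, at least 11 reached 1 CPM in every library, and the list summed to 1267 to 1379 CPM in the controls and 1311, 1272 and 1599 CPM in the siFTO libraries. The uroplakins UPK1A, UPK1B, UPK2 and UPK3A and the factors GATA3 and TP63 were below 1 CPM in every library, while UPK3B (1.41 to 2.68 CPM), KRT13 (7.80 to 13.1 CPM) and KRT20 (3.88 to 4.56 CPM in the controls and 20.2, 20.2 and 27.6 CPM in the siFTO libraries) were measured in all. COL1A1, COL1A2, COL5A1, COL6A3 and FAP among the fibroblast markers, and CD74 and CSF1R (7.64 and 7.65 CPM in replicates 4 and 5, at most 0.402 CPM elsewhere) among the leukocyte markers, were high where VIM and FN1 were, and their part in these results was not tested.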

How the data were processed

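RNA-seq was analysed from 3 control and 3 siFTO libraries labelled 253J. The authors deposited 1 file of read counts per gene for each sample, without normalization. HTSeq, TopHat2 2.0.11, GRCh37 and hg19 are listed in the submitters' processing notes, with no role or order. The strand setting was not given in the sources used here, nor was the annotation release. Samples were grouped by their titles, and the labels name no batch. Symbols were paired with 56321 of 60483 gene IDs.

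Genes with low counts were removed (filterByExpr, minimum count 10, minimum total 15), libraries were scaled by TMM, and edgeR 4.0.16 in R 4.3.3 ran quasi-likelihood tests of siFTO against control with no covariate. P-values are two-sided and were adjusted by Benjamini-Hochberg over 14965 genes, with a threshold of 0.05. A standard error is the log2 fold change divided by the square root of F. CPM use the TMM-scaled sizes, differences between single libraries use log2(CPM + 0.5), and floors are 3 counts. Levels per kilobase use the summed exons of GENCODE 29. The test was run on simulated data first. Alternatives were other scalings, filters, DESeq2 1.42.0 and fits without single libraries or without replicates 4 and 5.

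The members and gene lists, the alternatives and the naming rule were chosen with earlier results of these data known. Named are the members, FTO, up to 4 called genes in each direction and 2 others of each list, and the 3 genes most like VIM and CDH1. Any further gene is marked as named after its values were seen, or belongs to a marker list, a count of 5 or fewer or an exception. Libraries of a group differed from each other by more than counting error. Values of some listed genes are not reported here.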

Additional observations from a re-analysis of the deposited data

How the results depend on the processing

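No paired analysis was possible because the replicate numbers 1 to 3 and 4 to 6 are not shared between the groups. Over all genes 2913 were higher and 2684 lower, with 1787 lower for library totals as scaling, 970 higher and 926 lower without replicates 4 and 5, and 1383 to 3826 higher and 1589 to 2928 lower in fits that left out 1 library each (these have fewer samples). Of the members, 4 were higher and 0 lower. Higher were 8 without a filter and 8 with 10 counts in 2 or more libraries (both test 10 members, CDH2, SNAI2, ZEB2 and TWIST1 only through their reads in replicates 4 and 5), 1 without replicates 4 and 5, and 1 to 7 in fits without 1 library. Lower was 1 in DESeq2, and 0 to 1 in fits without 1 library. VIM turned to -1.45 without replicates 4 and 5. Junction genes (6 higher, 12 lower) were 7 lower with library totals, 1 lower without replicates 4 and 5, and 2 to 6 higher and 3 to 15 lower without 1 library. Epithelial regulators (3 higher, 4 lower) were 6 higher with library totals and 1 lower without replicates 4 and 5, and 2 to 4 higher and 3 to 5 lower without 1 library. Mesenchymal effectors (17 higher, 0 lower) were 5 higher without replicates 4 and 5, 3 to 20 higher and 0 to 2 lower without 1 library, and 1 lower without a filter and 1 lower with 10 counts in every library. Further transcription factors (6 higher, 2 lower) were 2 higher without replicates 4 and 5, and 1 to 8 higher and 1 to 2 lower without 1 library. TGF-beta genes (9 higher) were 2 higher without replicates 4 and 5 and 1 to 10 without 1 library. With library totals as scaling, 4088 of all genes were higher. The cause of these moves was not tested. Of these 14 counts under 13 alternatives, 135 values were within 1.5 times the main count and 47 were not. Members with fewer than 10 reads outside 2 libraries are limited by depth.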
